A study of Mus musculus with 15 samples.

Results

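The Trbv12 family of the mouse T cell receptor (TCR) β locus, known by its serological name as V beta 5, was followed through the rearrangements of 15 samples. Its members were all rearrangements assigned by the files to TCRBV12-01 (Trbv12-1) or TCRBV12-02 (Trbv12-2), which are 2 of the 35 V genes found. These made up 3933 of 29992 rearrangements, and 2761 of the 18625 that were productive, meaning in frame and without a stop codon. Of the productive members, 1472 carried Trbv12-1 and 1289 carried Trbv12-2. The samples were genomic DNA of sorted CD8+ PD-1+ CD44+ T cells from 5 C57BL/6 mice that received no treatment (labelled Control) and carried the mouse melanoma line B16F10GP, which expresses the glycoprotein of lymphocytic choriomeningitis virus as a model antigen, on both flanks. The first tumor implanted (tumor 1, right flank), the later one (tumor 2, left flank) and the lymph node draining tumor 1 (TdLN) were each sampled in all 5 mice. Since only rearrangements were read, the labelled cell type could not be set against marker genes. A TCR is used below for a distinct productive nucleotide rearrangement, and a template for the estimated genome copy that carried it.

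A TCR β chain is assembled in the thymus by joining a V, a D and a J segment, with bases trimmed from the ends and non-templated N bases added at the junctions. The junction, the third complementarity determining region (CDR3), lies over the bound peptide, whereas the V segment supplies the other two contact loops. T cells with V beta 5 are deleted by viral superantigens in strains that express the class II molecule I-E, which C57BL/6 mice lack, and V beta 5 is a common V segment of their CD8+ cells. The transgenic receptor of OT-I mice is a well known V beta 5 receptor.

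Both members lie on the forward strand of chromosome 6 of GRCm38 in a block where Trbv12 and Trbv13 genes alternate. Trbv12-1 spans chr6:41113550-41114067 with its V exon, the second exon, at chr6:41113775-41114067, and Trbv12-2 spans chr6:41118851-41119364 with its V exon at chr6:41119072-41119364. Trbv12-3 (chr6:41127592-41128076) is annotated as a pseudogene. The V exons of Trbv12-1 and Trbv12-2 are 293 bases long and identical at 89.1% of positions, with 32 differences. The last 65 bases are shown because the assay read about this stretch, and the genes are told apart by it alone. Capitals mark the 5 positions at which the genes differ.
Trbv12-1, chr6:41114003-41114067: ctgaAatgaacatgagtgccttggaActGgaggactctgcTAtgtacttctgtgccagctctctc
Trbv12-2, chr6:41119300-41119364: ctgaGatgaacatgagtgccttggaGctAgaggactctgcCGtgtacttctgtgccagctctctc
The recombination signal starts directly after the coding end. Its first 39 bases are shown, the heptamer in capitals, because this is where the recombinase acts, and they differ at 1 position between the genes.
Trbv12-1, chr6:41114068-41114106: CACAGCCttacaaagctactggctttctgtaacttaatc
Trbv12-2, chr6:41119365-41119403: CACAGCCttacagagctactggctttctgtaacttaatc
The V part of the productive members had a median length of 61 bases with Trbv12-1 and 62 with Trbv12-2. It matched the germline of the assigned gene exactly in 1405 of 1472 Trbv12-1 and in 1233 of 1289 Trbv12-2 rearrangements. All of the productive members were closer to the germline of the assigned gene than to that of the other. The assignment rests on the same bases, so this is not an independent check of it. Trbv12-3 was assigned to 10 rearrangements, 3 of them productive and all 3 in tumor 1 of mouse 1, and 4 more were given the family name alone. None of these were counted as members.

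Each TdLN had 3254 to 9105 productive templates, each tumor 1 had 3601 to 6137 and each tumor 2 had 238 to 3975, where mouse 4 was the shallowest sample by far. Unique TCRs numbered 1290 to 5722, 183 to 366 and 50 to 553. A share of 0 allows up to 3 counts of the total, which is 6.0% of the 50 TCRs of tumor 2 of mouse 4 and 0.0524% of the 5722 of the deepest TdLN. Intervals in brackets are 95% Wilson intervals and cover counting error only. Several libraries of different mice held identical rearrangements. Tumor 2 of mouse 1 had 43.2% of its unique TCRs in tumor 2 of mouse 2, against 22.7% in its own TdLN. Tumor 2 of mouse 3 had 33.5% in tumor 2 of mouse 1 and 1.55% in its own TdLN, and tumor 2 of mouse 4 had 36% in tumor 1 of mouse 5, though 70% in its own tumor 1. No TdLN had more than 3.68% in any sample of another mouse, but the fewer TCRs of the tumors bound this share. The 3.68% was that of the TdLN of mouse 2 in tumor 2 of mouse 1, against 5.77% in its own tumor 2. The comparisons of tissues by unique TCRs are therefore also given without rearrangements found in another mouse, an alternative chosen after this overlap was seen. Library names are written in one style for mice 1 to 3 and in another for mice 4 and 5, and values are given for both sets where they differ.

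In the TdLN, Trbv12-1 was the V gene with the second highest mean share of unique TCRs of 35, after Trbv13-2, and Trbv12-2 was the seventh. Trbv12-1 made up 5.94%, 8.77%, 8.91%, 8.44% and 8.55% of the unique TCRs of the TdLN of mice 1 to 5. Mouse 1 (80 of its TCRs, interval 4.80 to 7.33) lay below the other 4 mice, which were close to each other. Trbv12-2 made up 4.68%, 5.09%, 4.26%, 8.20% and 8.57% in the same order. The TdLN of mice 4 and 5 were the high ones here, with intervals of 7.52 to 8.94 and 7.87 to 9.33, and did not overlap those of mice 1 to 3, the highest of which was 4.13 to 6.27 in mouse 2. Mice 4 and 5 also had the deepest TdLN, and the part of depth or library set in this gap was not tested.

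In tumor 1, Trbv12-1 made up 2.04%, 4.45%, 10.99%, 6.83% and 6.55% of unique TCRs in mice 1 to 5. These shares rest on 5, 13, 20, 25 and 22 TCRs, and mouse 3 (interval 7.23 to 16.4) was the only one above its own TdLN. In tumor 2 the gene made up 3.32%, 4.97%, 5.67%, 2.0% and 6.51%, each below the TdLN of the same mouse. The tumor 2 value of mouse 4 is a single TCR of 50 (interval 0.354 to 10.5). The TdLN thus had a mean of 8.13% ± 1.24, tumor 1 one of 6.17% ± 3.31 and tumor 2 one of 4.50% ± 1.82 (± SD of 5 mice). Mean shares of out-of-frame rearrangements, given further below, were lower in both tumors too. The tissues were compared over the 20 V genes whose share averaged 1% or more, with two-sided exact permutation tests and Benjamini-Hochberg adjustment at 0.05. For tumor 1 against TdLN, tumor 2 against TdLN and tumor 1 against tumor 2, 0 of 20 were called (0%), with limma as well, and 7, 6 and 2 had an unadjusted p under 0.05. Trbv12-1 was lower in tumor 2 than in the TdLN in 5 of 5 mice, with a difference of means of -3.63 percentage points, the second largest of the 20 genes (exact permutation p = 0.0159, adjusted p = 0.159). Over the alternatives the adjusted p lay between 0.0529 and 0.381. The ranges nevertheless overlapped, because the TdLN of mouse 1 lay below tumor 2 of mouse 5. Without rearrangements found in another mouse, the tumor 2 mean was 5.37% ± 1.87 against 8.20% ± 1.23 (SD of 5 mice, p = 0.0317 by exact permutation, adjusted 0.222). Without mouse 3, whose tumor 2 shared little with its own TdLN, the difference was -3.73 points (exact permutation p = 0.0571, n = 4 mice). Within the library sets, the mean difference was -3.22 points in mice 1 to 3 and -4.24 in mice 4 and 5. For tumor 1 against TdLN the difference was -1.95 points, lower in 4 of 5 mice (exact permutation p = 0.294, adjusted p = 0.563). It was -2.96 without mouse 3 (exact permutation p = 0.0857, n = 4) and -2.52 without near-copies, TCRs that share their last 40 bases with one of at least 50 times their templates (exact permutation p = 0.0317, adjusted p = 0.127).

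Trbv12-2 made up 2.45%, 2.74%, 4.95%, 4.37% and 6.25% of the unique TCRs of tumor 1, on 6, 8, 9, 16 and 21 TCRs. In tumor 2 it made up 3.63%, 4.42%, 4.12%, 4.0% and 5.61%, on 12, 16, 8, 2 and 31 TCRs. This was the narrowest spread of either gene in any tissue, but it lay within counting error. The interval of mouse 4 alone was 1.10 to 13.5. Its mean was 6.16% ± 2.06 in the TdLN, against 4.15% ± 1.58 in tumor 1 and 4.35% ± 0.755 in tumor 2 (± SD of 5 mice). Tumor 1 was lower in 4 of 5 mice, with a mean difference of -2.01 points (exact permutation p = 0.127, adjusted p = 0.282), with mouse 3 as the exception. Tumor 2 was lower in 5 of 5 mice, with a mean difference of -1.81 points (exact permutation p = 0.111, adjusted p = 0.222). The latter was larger in the mice with a high TdLN value. It was -0.621 in mice 1 to 3, where the within-mouse differences had an SD of 0.458, and -3.58 in mice 4 and 5. The tumor 1 and tumor 2 shares differed by 1.68 points for Trbv12-1 (exact permutation p = 0.365), which was 0.766 without mouse 3 and 0.888 without mouse 4, and by -0.204 for Trbv12-2 (exact permutation p = 0.794). Without rearrangements found in another mouse, the differences from the TdLN were -2.04 points for Trbv12-1 in tumor 1, and -2.29 in tumor 1 and -1.25 in tumor 2 for Trbv12-2. Those between the tumors were 0.793 and -1.04, and no V gene was called in any of these comparisons.

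**Figure D1:**
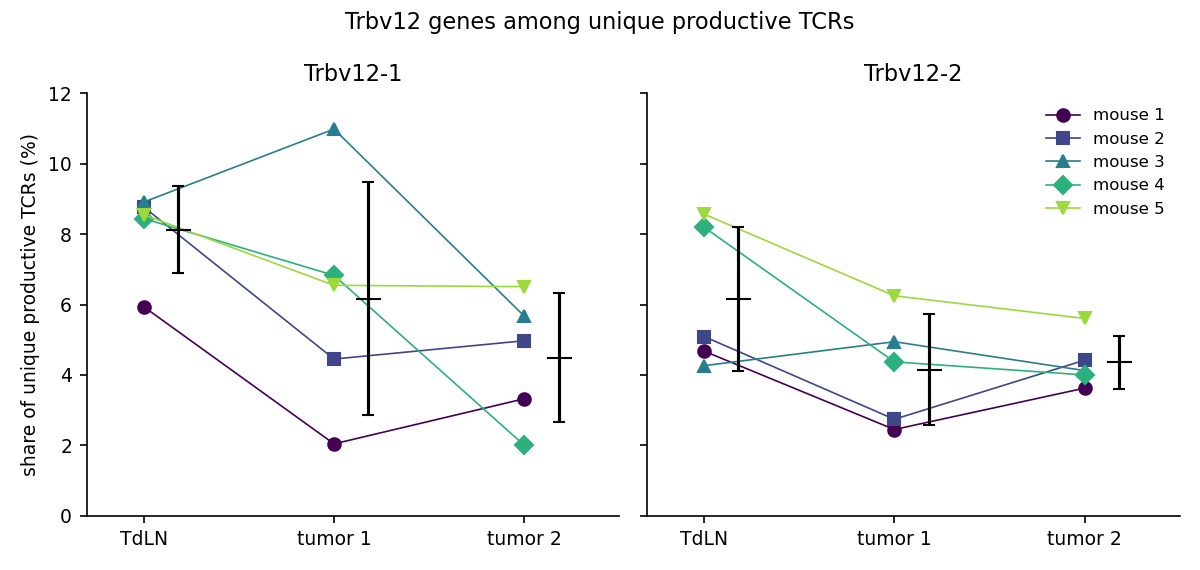
Share of unique productive TCRs (%) with Trbv12-1 (left) and Trbv12-2 (right) in TdLN, tumor 1 and tumor 2. Each marker is a mouse, lines join samples of one mouse, and bars show the mean ± SD of 5 mice. All 5 mice lie lower in tumor 2 than in TdLN for both genes, and mouse 3 alone rises from TdLN to tumor 1.

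The Trbv13 genes of the same block were looked at beside the members. Trbv13-1 made up 8.50% ± 2.05 of the TCRs of tumor 1 and 7.22% ± 1.36 of tumor 2, and both means lay above the 6.25% ± 0.252 of the TdLN (± SD of 5 mice). Trbv13-2, at 9.68% ± 0.827 in the TdLN, had 7.31% ± 1.58 in tumor 1 and 6.56% ± 1.91 in tumor 2. Trbv13-3 was at 5.67% ± 0.370, 4.30% ± 1.10 and 6.26% ± 1.17. The median difference over the 20 genes was -0.128 points for tumor 1 and -0.115 for tumor 2 against TdLN. Over the 15 samples, the share of Trbv12-1 ranked most like those of Trbv26 (Spearman's rho 0.73) and Trbv2 (0.71), and that of Trbv12-2 most like those of Trbv26 (0.81) and Trbv12-1 (0.68). These shares come from the same libraries and sum to 100% in each, and 3 samples come from each mouse.

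By templates, which weight a TCR by the size of its clone, each member held less than in unique TCRs in nearly every tumor, with Trbv12-1 in tumor 1 of mouse 3 and both genes in tumor 1 of mouse 5 as the exceptions. Trbv12-1 held 3.41%, 7.07%, 8.55%, 8.23% and 7.46% of the productive templates of the TdLN of mice 1 to 5. In tumor 1 it held 0.358%, 1.43%, 63.5%, 1.75% and 7.56%. Mouse 3 stood apart because of a single clone, without which its value was 3.21%. In tumor 2 the gene held 1.41%, 2.11%, 3.48%, 0.420% and 4.01%. Trbv12-2 held 2.59%, 4.37%, 2.87%, 8.10% and 8.59% of TdLN templates, 0.163%, 1.05%, 1.86%, 1.39% and 7.61% of tumor 1 templates and 0.679%, 1.01%, 0.882%, 0.840% and 4.55% of tumor 2 templates. Every tumor lay below the TdLN of its mouse for Trbv12-2, and the tumors of mouse 5 were the highest of both tissues.
With the largest clone of each sample left out, whatever its V gene, the Trbv12-1 mean of the TdLN was 7.19% ± 1.99, that of tumor 1 was 3.43% ± 3.41 and that of tumor 2 was 3.05% ± 1.94. For Trbv12-2 they were 5.44% ± 2.76, 3.53% ± 3.70 and 2.12% ± 2.23 (± SD of 5 mice). For Trbv12-2 the SD exceeded the mean in either tumor. Members carried 2.91 to 89.6 templates per TCR in tumor 1, with a median of 4.95 over the mice, while TCRs of the other V genes carried 8.99 to 26.1, with a median of 15.1. In tumor 2 the medians were 3.09 for members and 9.94 for the others, and in the TdLN 1.59 and 2.05. Clones of at least 1% of the productive templates of their sample were 5 of 145 member TCRs and 48 of 1276 others in tumor 1, and 3 of 146 and 65 of 1344 in tumor 2. These are sums over mice and were not tested.

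**Figure D2:**
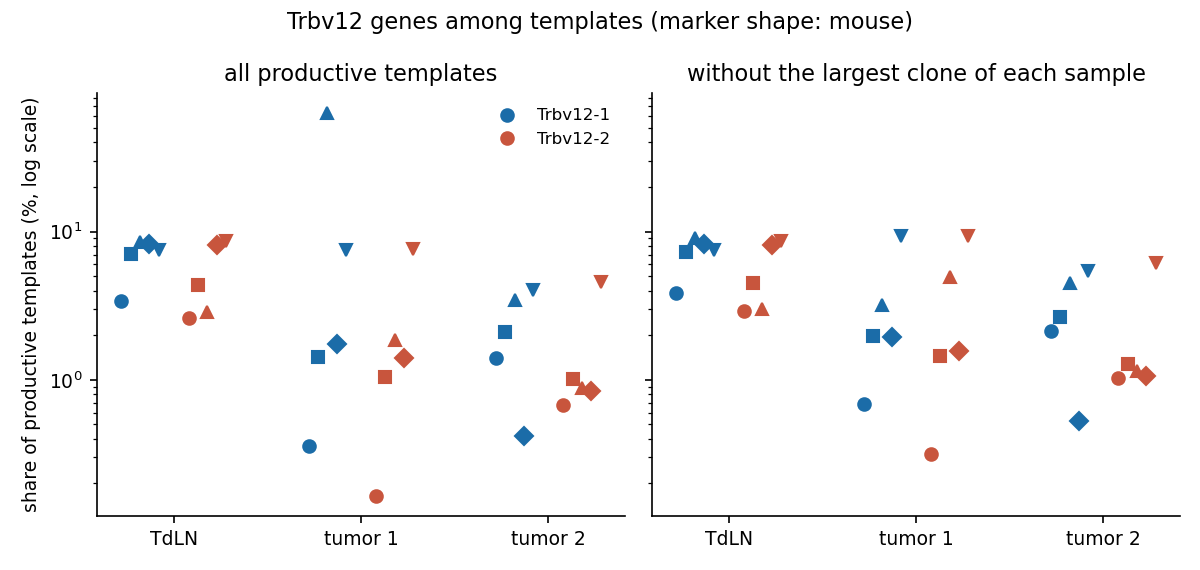
Share of productive templates (%, log scale) held by Trbv12-1 (blue) and Trbv12-2 (red) per sample, with all templates (left) and without the largest clone of each sample (right). Marker shapes stand for mice. Tumor 1 of mouse 3 falls from 63.5% to 3.21% for Trbv12-1.

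The largest member clone of the series was the Trbv12-1 rearrangement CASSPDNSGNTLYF with Trbj1-3, named by its CDR3 residues. It had 2476 templates, 62.3% of the productive templates of tumor 1 of mouse 3 (interval 60.8 to 63.8). In the same mouse it had 106 templates (2.69%) in the TdLN and 118 (3.06%) in tumor 2. The same 87 bases were also listed with 38 templates in tumor 2 of mouse 1, 25 in tumor 2 of mouse 2 and 31 in tumor 1 of mouse 4, and were the largest member clone in each of those samples. These 3 samples are of mice 1, 2 and 4, and their counts were at most 0.956% of their productive templates. The origin of these copies was not tested. The sequence is shown with the bases between the V and J parts in capitals.
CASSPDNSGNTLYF, Trbv12-1 and Trbj1-3: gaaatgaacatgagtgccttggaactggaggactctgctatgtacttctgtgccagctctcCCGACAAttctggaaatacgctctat
This CDR3 occurred with Trbv12-1 and Trbj1-3 in 11 nucleotide forms, of which those beside the main form had at most 3 templates each. In tumor 1 of mouse 3, 9 of the 20 Trbv12-1 TCRs were near-copies. They count as TCRs in the shares above.

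A contrasting case was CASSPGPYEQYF with Trbj2-7, one of 2 Trbv12-1 CDR3s found in the TdLN of 4 mice, the highest number. It was written in 8 nucleotide forms, and each form was found in 1 mouse only. The TdLN of mice 1 to 5 held 11, 1, 8, 0 and 4 templates of it. The tumors held 11 and 8 in tumor 1 and tumor 2 of mouse 2, and 65 and 38 in those of mouse 5. Mouse 5 had several forms of its own, and mouse 2 kept one form in all its tissues. The 7 forms with more than 1 template are shown, since they spell one CDR3 through different junctions, in capitals.
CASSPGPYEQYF form 1, mouse 5, 70 templates: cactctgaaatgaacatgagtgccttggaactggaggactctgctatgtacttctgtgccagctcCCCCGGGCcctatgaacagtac
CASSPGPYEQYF form 2, mouse 5, 21 templates: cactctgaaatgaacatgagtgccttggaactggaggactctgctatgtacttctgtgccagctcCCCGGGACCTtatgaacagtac
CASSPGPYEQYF form 3, mouse 2, 20 templates: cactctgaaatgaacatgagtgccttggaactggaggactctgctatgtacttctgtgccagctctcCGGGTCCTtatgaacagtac
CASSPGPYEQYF form 4, mouse 5, 15 templates: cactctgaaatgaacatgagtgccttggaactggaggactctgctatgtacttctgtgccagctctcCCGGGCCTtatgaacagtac
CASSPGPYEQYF form 5, mouse 1, 9 templates: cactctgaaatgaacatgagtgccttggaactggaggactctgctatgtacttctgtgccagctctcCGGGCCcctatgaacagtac
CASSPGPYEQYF form 6, mouse 3, 8 templates: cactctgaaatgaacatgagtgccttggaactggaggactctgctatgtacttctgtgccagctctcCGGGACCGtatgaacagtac
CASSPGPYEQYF form 7, mouse 1, 2 templates: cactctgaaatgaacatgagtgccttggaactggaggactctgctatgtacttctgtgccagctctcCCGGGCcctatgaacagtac
The next Trbv12-1 CDR3s shared by TdLN were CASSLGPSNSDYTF (4 mice, 10 templates) and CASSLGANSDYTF (3 mice, 11 templates), both with Trbj1-2 and neither seen in a tumor. For Trbv12-2 no CDR3 reached more than 2 TdLN. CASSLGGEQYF had 14 and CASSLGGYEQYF had 12 TdLN templates and neither was seen in a tumor, while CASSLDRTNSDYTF had 8 and a further 15 in tumors. Of the distinct CDR3s of the TdLN, 31 of 1222 with Trbv12-1 (2.54%) and 29 of 1086 with Trbv12-2 (2.67%) were found in 2 or more mice, against 1.94% of the 12256 pairs of V gene and CDR3 of the other V genes.

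Trbv12-2 had its largest clone, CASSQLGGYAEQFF with Trbj2-1, in tumor 1 of mouse 5, with 221 templates (6.14%, interval 5.40 to 6.97) and 2 in the TdLN of that mouse. In mouse 2, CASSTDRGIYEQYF with Trbj2-7 had 14 TdLN templates, 24 in tumor 1 and 10 in tumor 2. Another 3 templates of it were listed in tumor 2 of mouse 1. Its junction of 16 bases, 7 of them N bases, is the longest among the clones named here.
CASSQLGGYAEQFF, Trbv12-2 and Trbj2-1: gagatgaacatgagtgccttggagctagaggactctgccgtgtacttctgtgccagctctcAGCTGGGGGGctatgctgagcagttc
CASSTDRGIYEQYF, Trbv12-2 and Trbj2-7: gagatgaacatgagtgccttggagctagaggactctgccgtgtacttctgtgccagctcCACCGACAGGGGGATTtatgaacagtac
The largest member of tumor 2 of mouse 5 was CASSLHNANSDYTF (Trbv12-2, 52 templates, 2.51%), found in no other sample. Those of tumor 1 of mice 1 and 2 were the Trbv12-1 clones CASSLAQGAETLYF (18 templates, 0.293%) and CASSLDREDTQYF (26 templates, 0.619%), each found in tumor 2 of its mouse as well, with 6 and 11. A single template of each was also listed in tumor 2 of another mouse. In the TdLN the largest members held 9 templates in mice 1, 4 and 5, among them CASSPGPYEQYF, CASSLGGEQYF and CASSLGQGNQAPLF. In the TdLN of mice 1 and 2 the top count, 9 and 14, was reached by a rearrangement of either gene, and the one named is the first by nucleotide sequence. No member of tumor 2 of mouse 4 had more than 1 template.

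**Figure D3:**
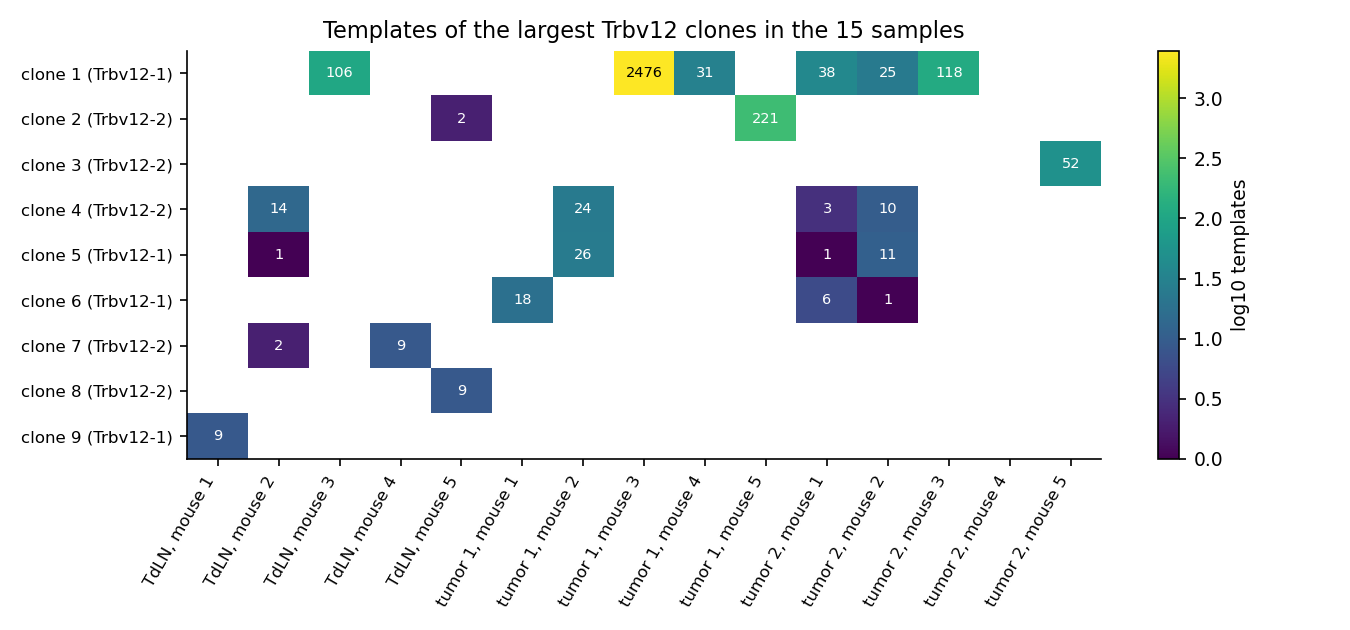
Templates (number in each cell, colour on a log10 scale) of 9 rearrangements, the largest Trbv12 member of each sample with ties settled by nucleotide sequence and single templates left out. Rows are clones in order of their total, from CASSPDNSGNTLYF (clone 1), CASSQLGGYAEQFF, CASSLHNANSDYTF, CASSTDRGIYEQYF, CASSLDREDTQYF and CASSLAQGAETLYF to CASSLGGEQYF, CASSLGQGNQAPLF and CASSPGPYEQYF (form 5, clone 9), and columns are samples. Clone 1 fills 6 samples of 4 mice.

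Member TCRs of the tumors were looked for, base for base, in the TdLN of the same mouse. In tumor 1, 2 of 11, 7 of 21, 10 of 29, 5 of 41 and 8 of 43 member TCRs were found there in mice 1 to 5. These are 18.2%, 33.3%, 34.5%, 12.2% and 18.6%, where the other V genes had 47.0%, 35.8%, 52.3%, 11.4% and 24.2%. Members were the lower ones in 4 of 5 mice, and mouse 4, with a share like that of the others, was the exception. In tumor 2, 1 of 23, 7 of 34, 2 of 19, 0 of 3 and 6 of 67 members were found in the TdLN. These are 4.35%, 20.6%, 10.5%, 0% and 8.96%, where the other V genes had 24.0%, 26.5%, 0.571%, 21.3% and 4.94%. Members were thus lower in mice 1, 2 and 4 and higher in mice 3 and 5, and 0 of 3 allows any share. Finding a rearrangement of few templates depends on depth, and the difference was not tested. Rearrangements found in 2 or more mice were 14 of 1425 distinct ones with Trbv12-1 (0.982%), 22 of 1241 with Trbv12-2 (1.77%) and 2.20% of 14789 with other V genes, shares that were not tested. The shared ones had a mean of 2.43 and 1.68 N bases for Trbv12-1 and Trbv12-2, and those of 1 mouse had 3.67 and 3.46. With other V genes these means were 2.88 and 3.52, in the same direction. All 10 pairs of mice shared at least 1 member. The pairs within a library set shared 10 (mice 1 and 2), 7 (mice 1 and 3), 5 (mice 2 and 3) and 15 (mice 4 and 5), and the pairs across sets shared 1 to 3. The other V genes had the same split, with 159, 67, 52 and 93 within sets in that order and 4 to 18 across, so it is not particular to the members.

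Out-of-frame rearrangements are carried along by a cell whose other allele made its receptor, and so show V gene use without selection on that chain. In the TdLN, Trbv12-1 made up 6.83%, 7.19%, 8.11%, 5.86% and 5.96% of unique out-of-frame rearrangements in mice 1 to 5. Its share of productive TCRs was higher in 4 of 5 mice, with a mean of 8.13% ± 1.24 against 6.79% ± 0.928 (SD of 5 mice, p = 0.103 by exact permutation, adjusted 0.147). Trbv12-2 made up 4.60%, 3.02%, 4.68%, 4.89% and 5.57% of the out-of-frame ones and had a higher share among productive TCRs, again in 4 of 5 mice. The means were 6.16% ± 2.06 and 4.55% ± 0.939 (SD of 5 mice, p = 0.214 by exact permutation, adjusted 0.286). Of the 20 V genes, 11 were called in this comparison (55%), and neither member was among them. The gap was uneven between the library sets. It was 0.498 points for Trbv12-1 and 0.578 for Trbv12-2 in mice 1 to 3, and 2.59 and 3.16 in mice 4 and 5. Among productive TCRs, the Trbv12-2 share of the TdLN averaged 8.39% in mice 4 and 5 against 4.68% in mice 1 to 3. The out-of-frame shares of mice 4 and 5 were also the highest of the 5 mice, though by less, with means of 5.23% against 4.10%. Without mouse 1, in which the productive share of Trbv12-1 was the lower one, the Trbv12-1 difference was 1.89 points and passed the threshold (exact permutation p = 0.0286, adjusted p = 0.0476, n = 4). That leaves out the only mouse that went the other way, and the p is the smallest that 4 values against 4 allow. Of 12 alternatives, 1 was stronger in this way and 1, by templates, had the other sign. In the tumors, the mean out-of-frame shares were lower than in the TdLN. Trbv12-1 averaged 4.91% ± 2.79 of them in tumor 1 and 4.14% ± 2.33 in tumor 2. Trbv12-2 averaged 2.61% ± 1.38 and 3.72% ± 1.49 (± SD of 5 mice). The lower mean shares of the tumors were thus not particular to productive TCRs, and these differences were not tested.

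**Figure D4:**
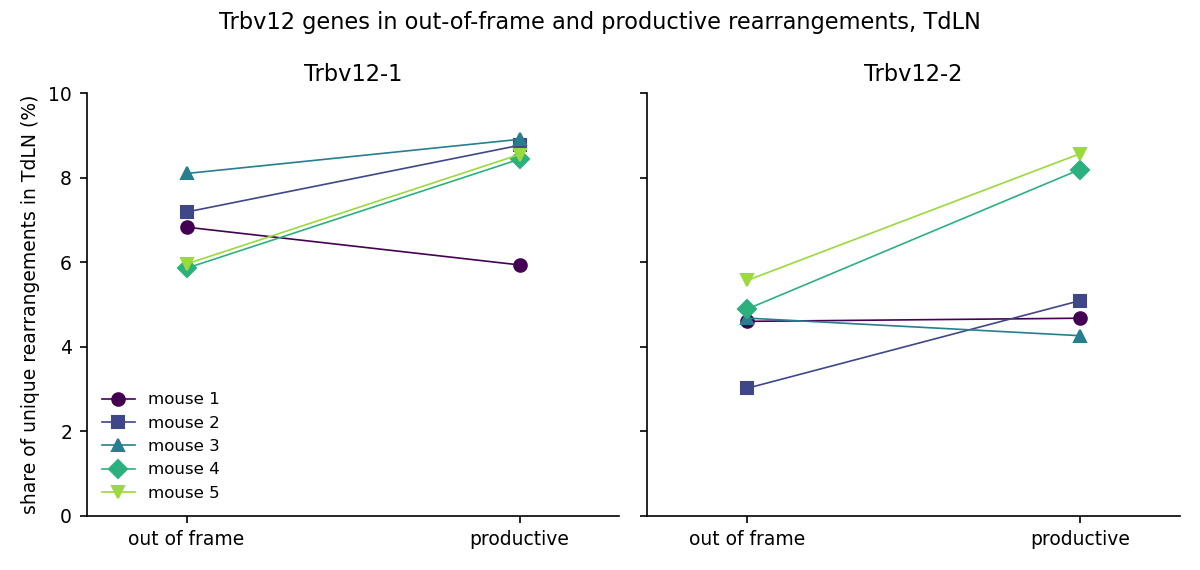
Share (%) of unique out-of-frame and productive rearrangements of the TdLN with Trbv12-1 (left) and Trbv12-2 (right). Each marker is a mouse and lines join the values of one mouse. The lines of mice 4 and 5 rise for both genes, by 2.58 and 2.59 points for Trbv12-1 and by 3.31 and 3.002 for Trbv12-2.

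J partners were counted in the TdLN, where members were most numerous, against all other V genes of the same sample. Trbj1-1 was rarer with both members. With Trbv12-1 it made up 6.25%, 3.497%, 5.22%, 5.80% and 5.93% of TCRs in mice 1 to 5, and with Trbv12-2 4.76%, 7.23%, 3.64%, 7.89% and 5.71%. With all V genes other than the one compared it ranged from 9.58% to 11.5% and from 9.14% to 11.5%, without overlap. Trbj1-2 was more frequent with Trbv12-1, at 15%, 12.6%, 6.09%, 7.45% and 8.998% against 4.26% to 5.90%, again without overlap. With Trbv12-2 it ranged from 3.17% to 10.9% and overlapped the others. Trbj1-6 made up 1.65% ± 1.22 of Trbv12-1 TCRs against 3.41% ± 0.384 (SD of 5 mice), and its ranges did not overlap either. It was added here after its values were seen.
Of the 240 pairs of 20 V genes and 12 J genes, 0 were called (0%) after Benjamini-Hochberg adjustment of two-sided exact permutation tests, and 45 had an unadjusted p under 0.05. The differences of Trbj1-1 with Trbv12-1 (-5.05 points), Trbj1-2 with Trbv12-1 (4.64), Trbj1-6 with Trbv12-1 (-1.76) and Trbj1-1 with Trbv12-2 (-4.38) all had the smallest p that 5 values against 5 allow (exact permutation p = 0.00794, adjusted p = 0.112). Those of Trbj1-1 were smaller among TCRs of at least 2 templates, at -2.16 points with Trbv12-1 and -1.59 with Trbv12-2 (p = 0.0238 and 0.127 by exact permutation), and weighted by templates, at -2.76 and -2.18. For TCRs of at least 2 templates, that of Trbj1-2 with Trbv12-1 was larger, at 7.28 points, and that of Trbj1-6 smaller, at -0.869. Ranges that did not overlap were seen in 17 of the 240 pairs (7.08%), in 3 of 12 for Trbv12-1 and in 1 of 12 for Trbv12-2. The commonest partner of both members was Trbj2-7, at 21.7% ± 2.96 of Trbv12-1 and 25.3% ± 5.42 of Trbv12-2 TCRs (± SD of 5 mice), where the other V genes had 21.9% and 21.7%. Weighted by templates, the Trbj2-7 difference of Trbv12-1 was -9.47 points (p = 0.00794 by exact permutation, adjusted 0.190), and it was -5.32 among TCRs of at least 2 templates (p = 0.278 by exact permutation). Trbj2-1 made up 16.2% ± 4.38 of Trbv12-1 TCRs against 12.6% ± 0.960 (adjusted 0.450 by exact permutation), and Trbj2-5 made up 13.001% ± 4.203 of Trbv12-2 TCRs against 11.1% ± 0.640 (adjusted 0.796 by exact permutation).

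**Figure D5:**
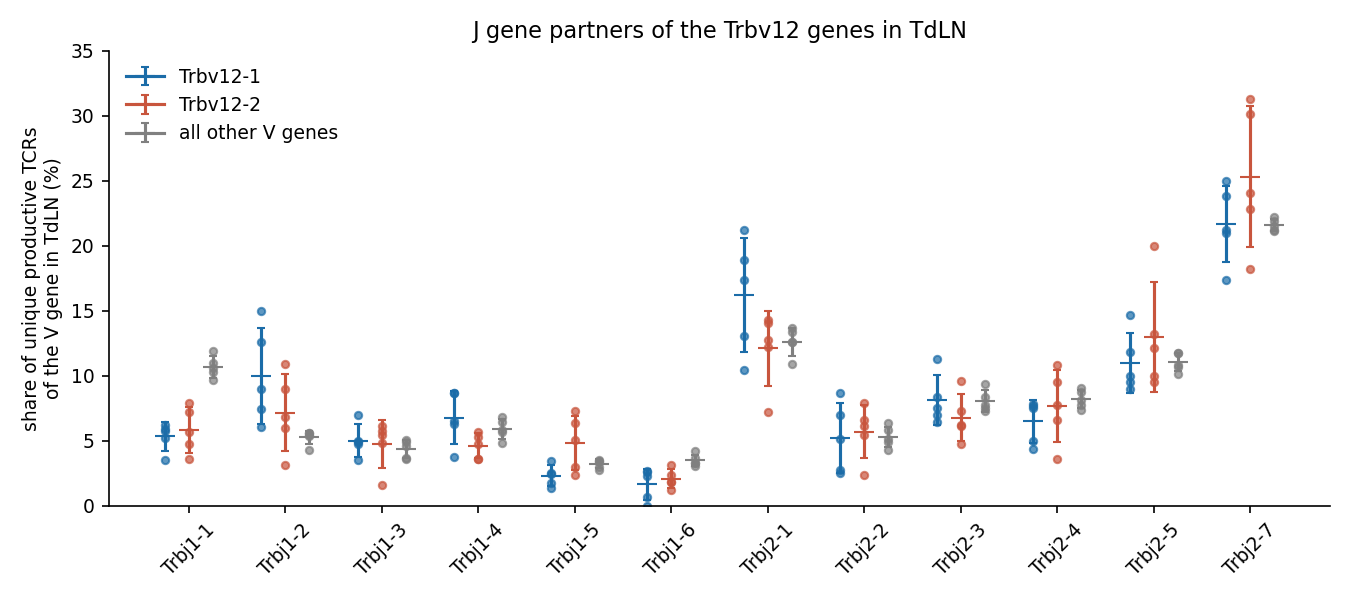
Share (%) of the unique productive TCRs of the TdLN that used each of 12 J genes, for Trbv12-1, Trbv12-2 and all other V genes together (grey, neither member). Points are mice and bars the mean ± SD of 5 mice. Both members lie below the grey points at Trbj1-1, and Trbv12-1 lies above them at Trbj1-2.

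The mean CDR3 length of the members was close to that of the other V genes. In the TdLN it was 42.1 nucleotides ± 0.289 for Trbv12-1 against 42.04 ± 0.227 for all other V genes (SD of 5 mice, p = 0.524 by exact permutation, adjusted 0.616). It was the longer one in 5 of 5 mice, by a mean of 0.111, and exact sign flips within mice gave p = 0.0625, the smallest that 5 pairs allow (adjusted 0.0962). For Trbv12-2 it was 42.1 ± 0.453 against 42.04 ± 0.231 and was longer in 3 of 5 mice (p = 0.778 by exact permutation, adjusted 0.810). Of the 20 V genes 8 were called for length (40%). CDR3s of 14 residues were the most frequent, at 32.1% ± 4.08, 30.4% ± 4.82 and 29.6% ± 1.10 of the TCRs of Trbv12-1, Trbv12-2 and the V genes of neither (SD, n = 5). N insertions averaged 3.82 bases ± 0.373 with Trbv12-1 against 3.57 ± 0.302, higher in 5 of 5 mice (exact permutation p = 0.278, adjusted p = 0.693), and 3.64 ± 0.451 against 3.59 ± 0.304 with Trbv12-2, higher in 3 of 5 (exact permutation p = 0.817, adjusted p = 0.908). For N insertions 0 of 20 V genes were called (0%) and 1 had an unadjusted p under 0.05.
Fewer bases were trimmed from the V end of both members, a measure that was added after the data were seen. A mean of 1.73, 1.78, 2.19, 1.56 and 1.63 bases was removed from Trbv12-1 in the TdLN of mice 1 to 5, and 1.46, 1.65, 1.67, 1.54 and 1.60 from Trbv12-2, where V genes of neither lost 2.68 to 2.93. Against all other V genes, the differences were -0.957 bases for Trbv12-1 and -1.14 for Trbv12-2, negative in 5 of 5 mice (exact permutation p = 0.00794, adjusted p = 0.0113 for each). The members ranked 17 and 19 of 20 from the most trimmed gene. For this measure 15 of 20 V genes were called (75%), so that the call itself sets neither member apart. With the mouse as a block, the adjusted p was 0.0833, as 5 sign flips allow no p below 0.0625.

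In tumor 1 the CDR3s of Trbv12-1 averaged 37.8, 40.2, 42.6, 42.0 and 41.6 nucleotides in mice 1 to 5. The short value of mouse 1 rests on 5 TCRs. The mean of 40.8 ± 1.92 differed by -1.32 nucleotides from that of the TdLN, with shorter CDR3s in 3 of 5 mice (SD of 5 mice, p = 0.183 by exact permutation, adjusted 0.511). Without mouse 1 the difference was -0.470. Trbv12-2 CDR3s averaged 41.98 ± 1.55 in tumor 1, a difference of -0.126 (exact permutation p = 0.897, adjusted p = 0.984). Of the 14 V genes with at least 5 TCRs in every sample compared, 0 were called (0%) and 3 had an unadjusted p under 0.05.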

How the data were processed

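Genomic DNA of sorted T cells was run through the immunoSEQ assay, and the provider processed the reads. Per the file headers the deposited counts are templates per 87-base rearrangement, with no normalization, and equal the estimated number of genomes. The deposited fractions, counts over the total of the sample, were not used. The files also give CDR3 length and trimmed and inserted bases. The submitters' processing notes name the build mm10, and germline sequence was read from GRCm38. Aligner and V gene reference are not given in the sources used here. The 35 V and 14 J names were matched to RefSeq symbols (GRCm38.p6). The 16 rearrangements without a V gene were left out of shares.

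Productive rearrangements formed the main values. Tissues were compared with two-sided exact permutation tests (252 arrangements) over all V genes whose share averaged 1% or more, with Benjamini-Hochberg adjustment. Within the TdLN each V gene was compared with all others of the same samples. These values of one sample share its error. The tests were checked on simulated data. Samples were paired by the number in their titles, which was taken as that of the mouse, though the titles do not say so. Deviations of V gene shares of tumor 1 from the group mean correlated with those of the TdLN at -0.0641 to 0.298 over the mice. With the TdLN of other mice the mean correlation was -0.0974 to 0.0235, and it was the higher one for mice 3 and 4. For tumor 2 and the TdLN of the same mouse the correlation ranged from -0.366 to 0.367. Whether the numbers mark the mice was not tested further. Named were both members, the block genes, the V genes most alike over samples, the largest member rearrangement of each sample, J genes with the largest differences, and per member the 3 CDR3s found in most TdLN, with the nucleotide forms of the first of these chosen after they were seen. The members and lists were chosen with earlier results of these data known. Alternatives were template shares, other definitions of a TCR, a minimum of 2 templates, downsampling (100 draws), V gene filters, a mouse block, limma with pseudocounts of 0.1 and 1, each mouse left out and both library sets. Python 3.11.15, numpy 2.4.6, pandas 2.3.3, scipy 1.17.1, matplotlib 3.10.9, R 4.3.3 and limma 3.58.1 were used.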

Additional observations from a re-analysis of the deposited data

Results flagged for a closer look

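In 6 cases a sample lay far from the other 4 of its tissue by Dixon's test, which chance alone sets off in about 1 of 20 groups. The cases are not independent, so their number cannot be set against this rate. The TdLN of mouse 1 entered by unique TCRs and by templates, and tumor 2 of mouse 5 with and without the largest clone. The TdLN of mouse 1 was low for Trbv12-1, at 5.94% of unique TCRs and 3.41% of templates. Tumor 1 of mouse 3 held 63.5% of its templates in Trbv12-1, through the clone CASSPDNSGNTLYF. The tumors of mouse 5 were high for Trbv12-2, at 7.61% of the templates of tumor 1, where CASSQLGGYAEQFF had 221 templates, and at 4.55% of those of tumor 2 (6.11% without the largest clone of the sample).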

How the results depend on the processing

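Of 319 alternative values, 288 kept their direction and side of the threshold. The Trbv12-1 difference of tumor 1 against TdLN turned to 7.98 points with template shares, through the clone of mouse 3, and ranged from -2.96 to -1.36 with each mouse left out. That of tumor 1 and tumor 2 was 12.6 with template shares, 0.379 without the largest clones, 0.769 without near-copies, 0.873 with distinct CDR3s and 0.766 to 2.42 with each mouse left out. For tumor 1 against TdLN, 4 V genes were called with template shares, 5 without the largest clones, 4 with distinct CDR3s and 4 without near-copies, none of them a member. Against TdLN, the Trbv12-2 difference of tumor 2 was -3.58 in mice 4 and 5. The small Trbv12-2 difference of tumor 1 and tumor 2 turned to 0.824 with template shares, 1.41 without the largest clones, 1.28 with at least 2 templates, 0.171 when downsampled and 0.508 in mice 4 and 5, and ranged from -0.460 to 0.165 with each mouse left out.

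In the TdLN, the length difference of Trbv12-1 was -0.235 nucleotides with at least 2 templates and 0.0398 in mice 4 and 5. With each mouse left out, that of Trbv12-2 ranged from -0.0402 to 0.209 and its N insertions from -0.0214 to 0.154. Tumor 1 minus TdLN, the length of Trbv12-1 was 0.607 with at least 2 templates and -1.74 to -0.470 with each mouse left out, and that of Trbv12-2 was 0.468 weighted by templates, 0.597 with at least 2, 0.0691 without near-copies, 0.107 in mice 4 and 5 and -0.529 to 0.622 with each mouse left out. The productive minus out-of-frame gap of Trbv12-1 was -0.491 by templates and 1.02 to 1.89 with each mouse left out, and that of Trbv12-2 was 3.45 with at least 2 templates (exact permutation, adjusted p = 0.0198). The causes were not tested beyond the clone named.

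With the mouse as a block, the Trbv12-1 difference of tumor 2 of -3.63 points had an exact sign-flip p of 0.0625 (adjusted p = 0.250). Since 0.0625 is the smallest p that 5 pairs allow, no call can be made under this pairing by sign flips, and the calls of V trimming are lost by construction. With limma and the mouse as a block, 0 V genes were called in the 3 tissue comparisons. Tumor shares rest on few TCRs, 1 to 36 per gene and sample.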
